A study of Mus musculus with 24 samples.

Results

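Short copies of ERVK retroviruses were followed in newly made RNA of mouse embryonic stem cells that lack ALKBH5 or carry a shortened form of it. A copy was taken as any repeat locus of the class LTR/ERVK that spans under 2000 bases, and it counted as a member if it had a value other than 0 in any deposited column. The repeat table lists 349535 such loci, 7.09% of its 4929385 lines, and 142748 of them had reads, out of 2172946 repeat loci with reads in all. The choice used position and class only and no measured difference. The table gives class, family and position but no subfamily, so a solitary LTR could not be told from a fragment of a longer copy by its name, and the copies are called short ERVK copies here.

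The cells were E14TG2a, a male mouse embryonic stem cell line, kept in serum with LIF, the MEK inhibitor PD0325901 and the GSK3 inhibitor CHIR99021. They were Alkbh5 KO (a knockout of Alkbh5), Alkbh5 del-cIDR (Alkbh5 that lacks the C-terminal intrinsically disordered region) or WT, called KO, del-cIDR and WT below. As far as the labels tell, each genotype may be a single line, so a difference between genotypes and a difference between lines cannot be told apart. Cells of each genotype were given 1 mM EU (5-ethynyl uridine, a uridine analog that enters growing transcripts) for 10, 20, 40 or 60 min, with 2 libraries for each genotype and time and 24 in all. Nothing in the labels says that both libraries of a group came from separate cultures, so p-values measure the spread between these libraries, which may be technical.

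ERVK elements are retroviruses fixed in the genome; in the mouse they include the IAP and the MusD/ETn families. A full copy carries its genes between a pair of long terminal repeats (LTRs), which hold the promoter and the polyadenylation signal. Recombination between the LTRs removes the inside and leaves a solitary LTR, and many other copies are broken by later insertions or deletions. In embryonic stem cells many ERVK copies are silenced by KRAB zinc finger proteins that bring in TRIM28 and SETDB1, and by DNA methylation. ALKBH5 removes N6-methyladenosine (m6A) from RNA, the mark that METTL3 and METTL14 write.

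The short copies had a median length of 351 bases (interquartile range 179 to 516). Most stood in little ERVK sequence: 120693 (84.5%) lay alone or in a run of ERVK loci spanning under 2000 bases, where a run joins ERVK loci at most 100 bases apart, and 80915 had no ERVK neighbour at that distance at all. A further 13216 (9.26%) lay in a longer run made of short copies only, with a median of 5 copies in the run. The remaining 8839 (6.19%) lay in a run that holds an ERVK copy of 2000 bases or more. These 3 settings are called short run or alone, long run of short copies, and run with a long copy.

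Libraries held 3654850 to 22124410 repeat reads, of which 242499 to 1500946 fell on short ERVK copies, and 6037 to 23382 reads of the Drosophila spike-in. Levels below are reads of a locus per 11714 spike-in reads. Levels were low: the median copy with reads had a mean level of 0.44 over the 24 libraries and the 90th percentile was 13.2, while 1683 copies reached 100 and 30 reached 1000. The test took in the 17099 copies that had reads in 6 or more libraries and a mean level of 10 or above, which held 85.4% of the summed level. Among values of single copies in single libraries 2 reads were more frequent (309168 values) than 1 read (223174 values), so mates of a pair may have been counted separately. Alkbh5, which still had reads in every library, lay at a relative log2 level of 2.67 to 3.39 in KO and 2.55 to 3.70 in del-cIDR libraries, against 3.25 to 4.19 in WT libraries, on a scale where the median tested gene of the library is 0. Its mean difference over the times was -0.60 ± 0.06 in KO (SE, limma adjusted p = 2.8e-06) and -0.46 ± 0.06 in del-cIDR cells (adjusted p = 6.3e-05); on the spike-in scale neither passed the test (adjusted p = 0.18 and 0.31). At 60 min in WT the split of Alkbh5 reads between both libraries was unclear. They were shared out by a median ratio, so that pair holds almost no spread. Whether reads fall inside the deleted parts could not be seen from counts per gene. All 10 embryonic stem cell markers had reads in every library, with summed levels of 11695 to 102741 over the libraries. Of 7 fibroblast markers, 4 had reads in every library of each genotype, while Col1a2, Col3a1 and Dcn had mean levels under 10. Summed levels of the 7 were 49.0 to 220 in KO, 36.0 to 238 in del-cIDR and 40.6 to 207 in WT libraries. Over all libraries, 5 trophoblast markers summed to 185 to 1548 and 6 primitive endoderm markers to 38.8 to 444.

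As a whole, short ERVK copies took a slightly smaller part of the repeat RNA in KO cells. Their reads made up 6.36 to 6.65% of all repeat reads in the 8 KO libraries (median 6.51%) and 6.48 to 7.01% in the 8 del-cIDR libraries (median 6.77%), against 6.71 to 7.07% in the 8 WT libraries (median 6.87%). The KO and WT libraries did not overlap, whereas the del-cIDR libraries spread over both ranges. The mean share was 6.52 ± 0.0883% in KO, 6.75 ± 0.171% in del-cIDR and 6.87 ± 0.106% in WT (SD, n = 8 libraries over 4 labelling times). The log2 difference averaged over the times was -0.08 for KO and -0.03 for del-cIDR against WT, and no test was made of these sums. Long ERVK copies took 0.454 to 0.630% in KO and 0.668 to 0.821% in del-cIDR libraries, against 0.568 to 0.807% in WT libraries. Per spike-in read, the scale of the deposited table, the difference of the short copies turned the other way: it averaged 0.23 in KO and 0.11 in del-cIDR cells over the times, though the group means were below WT at 40 min in KO and at 10 min in del-cIDR cells. Reads of all repeat loci per spike-in read stood in the same order at these times.

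**Figure D1:**
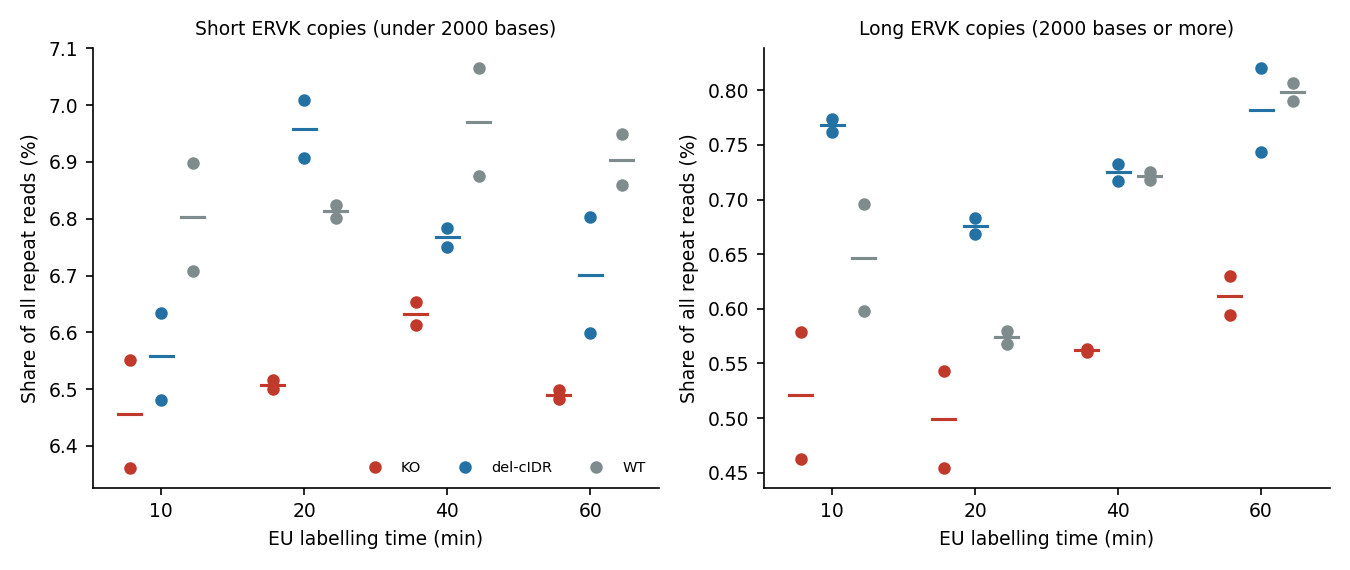
Share of all repeat reads (%) on short ERVK copies (left) and on long ERVK copies (right) against EU labelling time in minutes. Each point is 1 library, bars mark the mean of both libraries of a group, and neither axis starts at 0. The 8 KO libraries lie at 6.36 to 6.65% and the 8 WT libraries at 6.71 to 7.07% in the left plot; per spike-in read the KO mean is above the WT mean at 10, 20 and 60 min and below it at 40 min.

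The difference between both scales is a shift that all repeats of a library share. Scaled to spike-in reads as deposited, the median of all 306027 tested repeat loci was 0.29 higher in KO than in WT and 0.14 higher in del-cIDR than in WT, and the medians of the tested short ERVK copies were 0.25 and 0.13. All differences below are therefore given relative to the median tested repeat locus of each library, as log2(level + 1), a scale that understates the change of low copies. A relative log2 level of 0 means the level of that median locus. Bulk RNA cannot tell fewer transcribing cells from less RNA per cell.

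Single copies moved in both directions in KO cells, and more of them fell. Of the 17099 tested copies 1322 (7.73%) were lower in KO cells relative to WT (limma, adjusted p under 0.05), where 2.99% of all tested repeat loci were lower. The count of copies higher in KO was 368 (2.15%), where 1.86% of all loci were higher. Copies called with a difference above 2-fold numbered 788 lower and 92 higher, where 4390 and 1305 of all 306027 tested loci were so called. The median difference over all tested copies was -0.07, against -0.03 over all loci. On the deposited spike-in scale the split was the reverse, with 567 copies lower and 1032 higher, where 0.905% and 5.47% of all loci were called. Without any 1 of the 40 or 60 min libraries of KO or WT, 210 to 242 copies were higher in KO. Of the copies lower in KO, 1260 (95.3%) were lower at each of the 4 labelling times, and 347 (94.3%) of those higher were higher at each time. Both shares are partly built in, because the call rests on the mean over the same 4 times. The same shares over all called loci were not counted.

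Fewer copies differed in del-cIDR cells. There 583 (3.41%) were lower and 178 (1.04%) higher than in WT, where 1.69% and 0.638% of all repeat loci were called, and the median difference was -0.03 against -0.02 over all loci. Called differences above 2-fold were seen for 322 copies that fell and 96 that rose, where 2619 and 747 of all 306027 tested loci were so called. Without any 1 of the 20, 40 or 60 min libraries of del-cIDR, or of the WT libraries 40A, 40B and 60A, 103 to 118 copies were higher, without WT library 10A 317 were, and without WT 60A or 60B 385 and 384 were lower; A and B are both libraries of a group, A with more spike-in reads. On the deposited spike-in scale 197 copies were lower and 127 higher, where 0.469% and 0.386% of all loci were called. The mutants set against each other differed at more copies: 1828 were higher and 1528 lower in del-cIDR than in KO, where 5.78% and 6.77% of all loci were called. The shares of the short copies were 10.7% and 8.94%. On the spike-in scale 945 were higher and 1552 lower, where 2.01% and 6.92% of all loci were called.

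**Figure D2:**
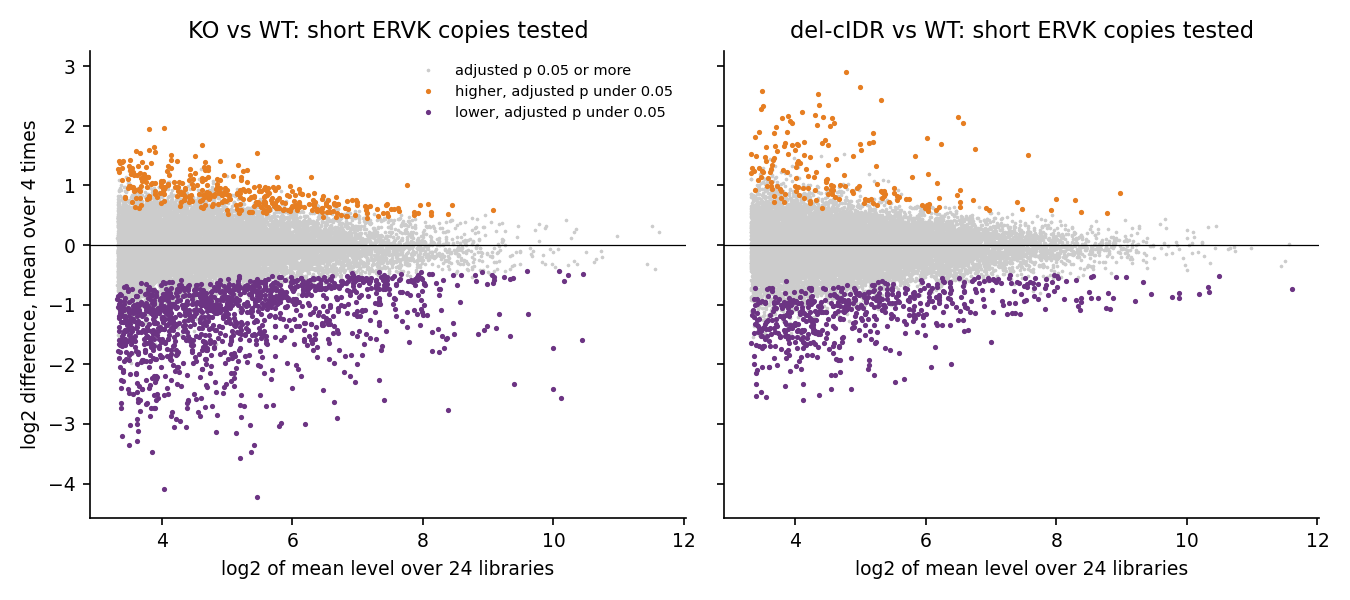
Log2 difference of each of the 17099 tested short ERVK copies, averaged over 4 labelling times, against the log2 of its mean level, for KO vs WT (left) and del-cIDR vs WT (right), relative to the median repeat locus of each library. Orange and purple points are copies called higher and lower at an adjusted p under 0.05 (368 and 1322 in KO, 178 and 583 in del-cIDR); on the spike-in scale the KO split turns to 1032 higher and 567 lower.

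The setting of a copy went with how often it was called. In runs with a long copy 130 of 583 tested copies (22.3%) were lower and 7 higher in KO cells, with a median difference of -0.28. In long runs of short copies 215 of 1217 (17.7%) were lower and 24 higher, with a median of -0.21. Copies in a short run or alone gave 977 of 15299 (6.39%) lower and 337 higher, with a median of -0.06. On the spike-in scale the KO medians of these 3 settings were 0.04, 0.11 and 0.26. That scale adds the same 0.32 to each, so each turned positive and their order could not change. In del-cIDR cells the order was different. Copies in runs with a long copy gave 43 higher (7.38%) and 30 lower (5.15%), those in long runs of short copies 21 higher and 90 lower (7.40%), and those in a short run or alone 114 higher (0.745%) and 463 lower (3.03%). Long ERVK copies themselves gave 16 higher and 198 lower (14.6%) of 1358 in KO and 46 higher and 51 lower in del-cIDR cells, with medians of -0.28 and 0.15 (0.04 and 0.31 on the spike-in scale). Short copies of ERVL, another LTR family that holds the MERVL element of 2-cell-like cells, gave 118 higher and 202 lower (3.41%) of 5931 in KO and 36 higher and 159 lower (2.68%) in del-cIDR cells.

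Of the 3 settings, runs with a long copy had the largest share of copies that differed between the mutants: 203 of 583 (34.8%) were higher in del-cIDR than in KO and 39 lower, and the median difference was 0.36, or 0.20 on the spike-in scale. These values describe groups of copies; whether one setting differs from another was not tested. Longer copies were called more often: 173 of 1057 copies of 1000 bases or more (16.4%) were lower in KO, against 121 of 2631 copies under 200 bases (4.60%). Median levels were 32.2 in the longer and 19.3 in the shorter group, and the part of read level in the calls was not tested. At the length limit itself, the 73 tested copies up to 100 bases below it had medians of -0.06 in KO and -0.16 in del-cIDR cells, and the 40 tested ERVK copies up to 100 bases above it had medians of -0.22 and 0.0072. Summed levels of 8 markers of 2-cell-like cells were 1058 to 4099 in KO and 61.4 to 615 in del-cIDR libraries, against 279 to 2208 in WT libraries, spike-in scaled, with Tcstv1 and Zfp352 at mean levels under 10; their part in the ERVK results was not tested.

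**Figure D3:**
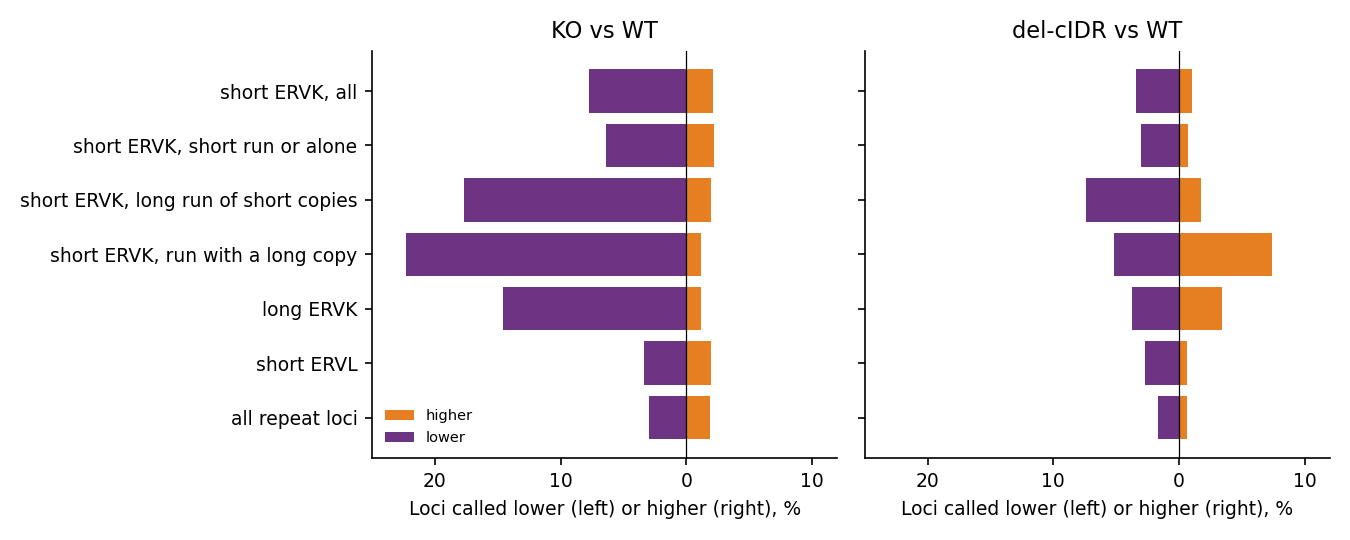
Percentage of tested loci called lower (bars to the left) or higher (bars to the right) at an adjusted p under 0.05 in KO vs WT and del-cIDR vs WT, by group of loci, relative to the median repeat locus of each library. The bar for short ERVK copies in a run with a long copy reaches 22.3% lower in KO and 7.38% higher in del-cIDR; all tested repeat loci give 2.99% lower in KO and 0.638% higher in del-cIDR. On the spike-in scale the KO split of all short copies is reversed, with 1032 higher and 567 lower.

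Whole chromosomes moved with the KO calls. On chromosome 6 the tested short copies had a median difference of 0.36 in KO, as all tested repeats there did (0.37), with 130 copies higher and 31 lower of 970. On chromosome 8 the median was 0.29 (0.29 over all repeats there), with 59 higher and 27 lower of 871. Chromosome 11 held 64 higher copies, 54 of them among the 345 tested between 13 and 57 Mb, where the median was 0.43, against -0.08 over the rest of that chromosome. On the other 17 chromosomes the medians in KO lay between -0.16 and -0.07, with 115 copies higher and 1203 lower. In del-cIDR cells chromosome X stood apart, with a median of 0.22 (0.20 over all repeats there), 29 copies higher and 8 lower of 434; the medians of the other 19 chromosomes lay between -0.16 and -0.0016. Fitted without chromosomes 4, 6, 8, 11 and X, 92 of 12647 copies were higher and 922 lower in KO, and 110 higher and 396 lower in del-cIDR cells. Of all 218413 loci in that fit, 979 were higher and 6441 lower in KO, and 861 higher and 3019 lower in del-cIDR cells.

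Called copies were also counted in windows of 1 Mb. How many windows all tested copies or all called repeat loci fill was not counted, so the counts describe the called copies only. The 1322 copies lower in KO fell into 502 windows, and the 4 fullest lay on chromosomes 4 and 5. On chromosome 4, 39 of 107 tested copies were lower between 146 and 147 Mb, 32 of 97 between 147 and 148 Mb and 27 of 54 between 145 and 146 Mb. Between 104 and 105 Mb of chromosome 5, 34 of 44 tested copies were lower, with a median difference of -1.37. Among copies higher in KO the fullest window held 11 of 31, between 22 and 23 Mb of chromosome 11. The 583 copies lower in del-cIDR cells lay in 338 windows, with 15 of 28 between 18 and 19 Mb of chromosome 16 and 11 of 19 between 20 and 21 Mb of chromosome 8. The 178 higher copies lay in 136 windows, with 7 of 21 between 70 and 71 Mb of chromosome 10.

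Other repeats around a called copy moved with it. For each copy the levels of all repeats of other families with a midpoint within 10 kb were summed and fitted in the same way. Among copies lower in KO that had such neighbours at a level of 10 or more, 1252 of 1279 (97.9%) had neighbours that were also lower, and 1184 (92.6%) had neighbours called lower. Among copies higher in KO the counts were 358 and 344 of 363. In del-cIDR cells neighbours were called in the same direction for 498 of 551 copies that fell (90.4%) and for 120 of 146 that rose (82.2%). The values over all tested repeat loci were close: 91.5% for lower and 93.5% for higher loci in KO, and 89.4% and 81.5% in del-cIDR cells. Copies called in KO had a median of -1.10 where their neighbours had -0.84 if lower, and 0.82 where their neighbours had 0.61 if higher.

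When each copy was set against its neighbours, few differences were left. Of 16723 copies with neighbours, 8 were higher and 17 lower relative to them in KO, where 0.0225% and 0.0266% of all loci were called. Only 1 of the 8 was itself called higher than in WT, whereas all 17 were called lower. In del-cIDR cells 6 were higher and 9 lower relative to their neighbours, where 0.016% and 0.017% of all loci were called. Of these, 3 were themselves called higher and 8 called lower than in WT. This comparison was added after the differences of single copies had been seen. The other 376 tested copies lay among neighbours with a level under 10, so that their reads stood out from the surroundings. In KO cells 43 of these (11.4%) were lower and 5 higher. In del-cIDR cells 32 were lower and 32 higher (8.51% each). Of the 32 that rose, 26 were among the 136 copies that lie in a run with a long copy. Of all 306027 tested repeat loci, 293571 had neighbours at a level of 10 or more. Among the remaining loci, which include the 376 copies, 320 were lower and 95 higher in KO cells. In del-cIDR cells 237 of these remaining loci were lower and 79 higher.

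**Figure D4:**
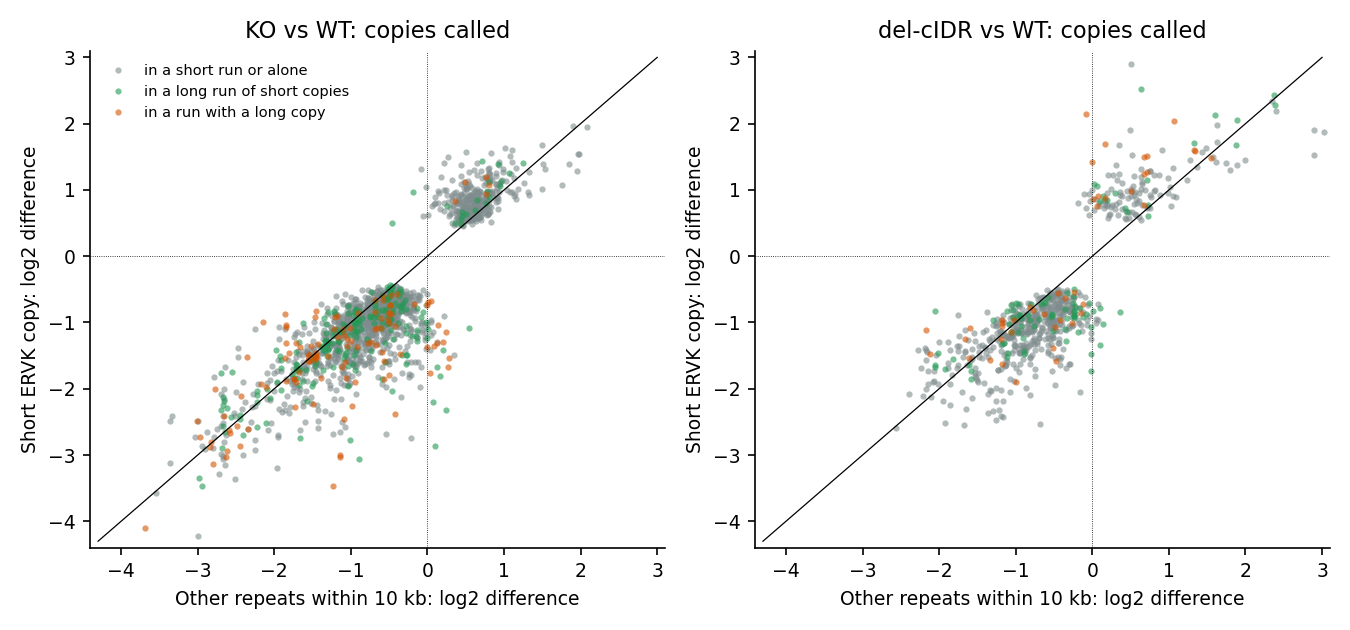
Log2 difference of each called short ERVK copy (vertical) against that of the summed repeats of other families within 10 kb (horizontal), for KO vs WT (left) and del-cIDR vs WT (right); the diagonal marks equal differences and colours give the setting of the copy. Most points lie on the side of their own sign: 97.9% of copies lower and 98.6% of copies higher in KO, and 98.4% and 93.8% in del-cIDR.

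The copies with the highest levels were mostly not called. The 10 highest had mean levels of 1448 to 3134 and together 2.20% of the summed level of all short ERVK copies. The highest of all, chr15:33831731-33832792 (1061 bases), lay among neighbours with a level of only 3.54. The split of its reads between both libraries of a group was unclear in at least 1 group. Its relative log2 level was 7.31 to 7.64 in KO libraries (median 7.43) and 6.14 to 7.02 in del-cIDR libraries (median 6.39), against 7.01 to 7.42 in WT libraries (median 7.27). The del-cIDR libraries overlapped the WT ones only at their highest value. The difference was -0.74 ± 0.12 in del-cIDR cells (SE, adjusted p = 0.0030; not called on the spike-in scale) and 0.21 ± 0.12 in KO cells (adjusted p = 0.37). The copy chr2:71178193-71178754 (561 bases) was also lower in del-cIDR cells, by -0.51 ± 0.12 (adjusted p = 0.035), a call that was lost on the spike-in scale and when any of 13 single libraries was left out, and its neighbours differed by -0.59. None of the 10 was called in KO, where their differences ran from -0.41 to 0.32, and the other 8 ran from -0.34 to 0.012 in del-cIDR cells. Per length the highest of these was chr6:51441068-51441184, with a level of 25127 per kb over only 116 bases.

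Among the 101 copies with a mean level of at least 500, 23 were lower and 1 higher in KO, and 12 were lower and 1 higher in del-cIDR cells. How many loci of all classes at that level were called was not counted, so these counts describe the 101 copies only. The largest falls in KO, picked after their values had been seen, came from a cluster on chromosome 1. The copy chr1:9010089-9011715 (1626 bases, mean level 1104) lay at 2.58 to 3.61 in KO (median 3.34) and 5.09 to 6.39 in del-cIDR libraries (median 6.20), against 5.55 to 6.01 in WT libraries (median 5.92). All KO libraries lay below all others. The difference was -2.57 ± 0.13 (adjusted p = 7.5e-09), with an unclear split of reads between libraries at this copy. Its neighbours chr1:9006744-9007141 (397 bases) and chr1:9007635-9009433 (1798 bases) differed by -2.41 ± 0.12 and -2.33 ± 0.12, and repeats of other families within 10 kb of the 3 copies by -2.69 to -2.51. On chromosome 3 the copy chr3:8085118-8087029 (1911 bases) had a median of 3.98 in KO against 5.64 in WT libraries, a difference of -1.72 ± 0.13 (adjusted p = 9.2e-07), and its neighbours also differed by -1.72. In del-cIDR cells these 4 copies differed from WT by 0.12 to 0.26, and none of the differences passed the test.

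Single copies were then ranked by size among those called with 1 sign at all 4 times whose mean level reached 30. By that rule the 2 largest falls in KO were at copies with 0 to 9 reads there. The 308-base copy chr10:41291003-41291311 had 0 to 9 reads in KO and 10 to 110 in del-cIDR libraries, against 18 to 140 in WT libraries. Its relative log2 level had a median of -2.31 in KO and 1.18 in del-cIDR, against 1.68 in WT libraries, and KO and WT did not overlap. The difference in KO was -4.22 ± 0.42 (adjusted p = 1.3e-05). The 858-base copy chr12:109779231-109780089 had 0 to 4 reads in KO and 10 to 101 in del-cIDR libraries, against 4 to 79 in WT libraries, a difference of -3.57 ± 0.25 in KO (adjusted p = 4.9e-07). In both cases the neighbours fell too, by 3.00 and 3.54 on the log2 scale.

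Both copies chr17:80875339-80875583 (244 bases) and chr17:80872183-80872453 (270 bases) lie in 1 run of 4269 bases that holds a long copy. The 270-base copy had 1 to 25 reads in KO and 21 to 210 in del-cIDR libraries, against 22 to 116 in WT libraries. Its relative log2 level was -2.58 to 0.18 in KO and 1.75 to 2.95 in del-cIDR, against 1.72 to 2.38 in WT libraries, so that all KO libraries lay below the others. It differed by -3.00 ± 0.17 (adjusted p = 2.5e-08), where its neighbours differed by -1.14, and it fell beyond them by 1.84 on the log2 scale (adjusted p = 0.00067). The 244-base copy differed by -3.47 ± 0.43 and by -2.21 beyond its neighbours, which did not pass the test (adjusted p = 0.16). Repeats of other families around both copies thus fell less than the copies did.

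A trio on chromosome X fell in KO and lay above WT in del-cIDR cells, where 1 of the 3 was called. The copies chrX:8720106-8720671, chrX:8720671-8721864 and chrX:8722141-8722527 differed by -3.36 ± 0.32, -3.02 ± 0.28 and -3.15 ± 0.32 in KO. The last of them had 0 to 5 reads in KO and 17 to 125 in del-cIDR libraries, against 4 to 37 in WT libraries, and none of the 3 ranges of relative level overlapped another. It rose by 1.72 ± 0.32 in del-cIDR cells (adjusted p = 0.0078), and its difference between del-cIDR and KO, 4.87, was the largest of any tested short copy. The other two differed from WT by 1.08 and 1.09 in del-cIDR cells, without passing the test (adjusted p = 0.087 and 0.052). The eighth of the largest falls, chr5:104883200-104884468, lies in the window of chromosome 5 named above and differed by -3.03 ± 0.30.

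The largest rises in KO by the same rule were smaller. The 1387-base copy chr7:58313600-58314987 had relative log2 levels of 1.15 to 2.02 in KO and -0.06 to 1.32 in del-cIDR, against -1.17 to 0.65 in WT libraries. KO and WT did not overlap, and the difference was 1.54 ± 0.20 (adjusted p = 0.00024), below that of its neighbours (1.96). The 597-base copy chr13:120602664-120603261 rose by 1.34 ± 0.31 in KO (adjusted p = 0.018) and fell by 1.58 in del-cIDR cells (adjusted p = 0.010). Its reads numbered 25 to 108 in KO and 0 to 15 in del-cIDR, against 5 to 52 in WT libraries. The other 6 rose by 1.14 to 1.25 and comprised 2 copies each on chromosomes 6, 8 and 11. For chr6:60303949-60304420 and chr6:60310090-60311932 the call was lost without any of 10 and any of 21 single libraries. Neighbours were called higher for all 8, and none rose beyond its neighbours.

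By the same rule the largest rises in del-cIDR cells came from 2 kinds of place. At chr17:50558926-50559874 (948 bases), chr3:70479431-70480109 (678 bases) and chr3:51008859-51009537 (678 bases) the copy lay in a run with a long copy among neighbours with levels of 1.36 to 2.43. The first of these had 0 to 8 reads in KO and 20 to 110 in del-cIDR libraries, against 0 to 22 in WT libraries. All del-cIDR libraries were above all others in relative level, and the difference was 2.65 ± 0.33 (adjusted p = 0.00030); in KO the copy fell by 1.29 (adjusted p = 0.034). The 678-base copies rose by 1.79 ± 0.25 and 1.72 ± 0.40, the last with a call that was lost without any of 10 single libraries.

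The 702-base copy chr13:93335505-93336207 also lay in a run with a long copy, but among neighbours with a level of 112. Its relative log2 level was -0.59 to 1.16 in KO and 2.80 to 3.16 in del-cIDR, against -1.23 to 1.64 in WT libraries, and the del-cIDR libraries lay above all others. It rose by 2.14 ± 0.24 in del-cIDR cells (adjusted p = 0.00011), where its neighbours differed by -0.08, and by 2.22 beyond them (adjusted p = 0.0052). Another copy of 702 bases in a run with a long copy, chr9:13668611-13669313, was seen among those with a level above 500. It lay at 2.48 to 3.38 in KO and 4.76 to 5.44 in del-cIDR, against 4.11 to 4.46 in WT libraries, so that no genotype overlapped another. It fell by 1.36 in KO (adjusted p = 1.6e-05) and rose by 0.88 in del-cIDR cells (adjusted p = 0.0020), while its neighbours differed by -0.01 and 0.16. Beyond its neighbours it fell by 1.33 in KO (adjusted p = 0.00087), and the 0.71 in del-cIDR cells did not pass the test.

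Elsewhere the rises in del-cIDR cells were shared with the surroundings. At chr1:50852001-50853766 (1765 bases) the copy rose by 2.44 ± 0.20 and its neighbours by 2.37, and at chr3:6864370-6865047 (677 bases) by 2.05 ± 0.17 and 1.88. The 367-base copy chr11:31932117-31932484 rose by 1.88 ± 0.29 in del-cIDR cells, less than its neighbours (3.02), and fell by 2.68 in KO cells (adjusted p = 3.5e-05), where its neighbours differed by -0.54 (adjusted p = 0.18). The 8 largest falls in del-cIDR cells ran from -2.30 to -1.93 on 8 chromosomes, and their neighbours were all called lower. At the first, chr9:122153454-122154313 (859 bases), del-cIDR libraries had 2 to 22 reads and WT libraries 21 to 102, and the relative log2 levels of -2.43 to 0.22 in del-cIDR did not overlap those of 0.85 to 1.78 in WT. Of the 8, chr15:76845615-76846042 (427 bases) fell beyond its neighbours, by 0.97 on the log2 scale (adjusted p = 0.039), and differed by -2.04 ± 0.17 in all. The copy chr8:17113048-17113763 fell by 2.19 in del-cIDR and rose by 0.93 in KO cells (adjusted p = 0.014), and its difference between del-cIDR and KO, -3.11, was among the 3 largest in that direction by the same rule, with those of chr13:120602664-120603261 and chr5:15848560-15849095.

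**Figure D5:**
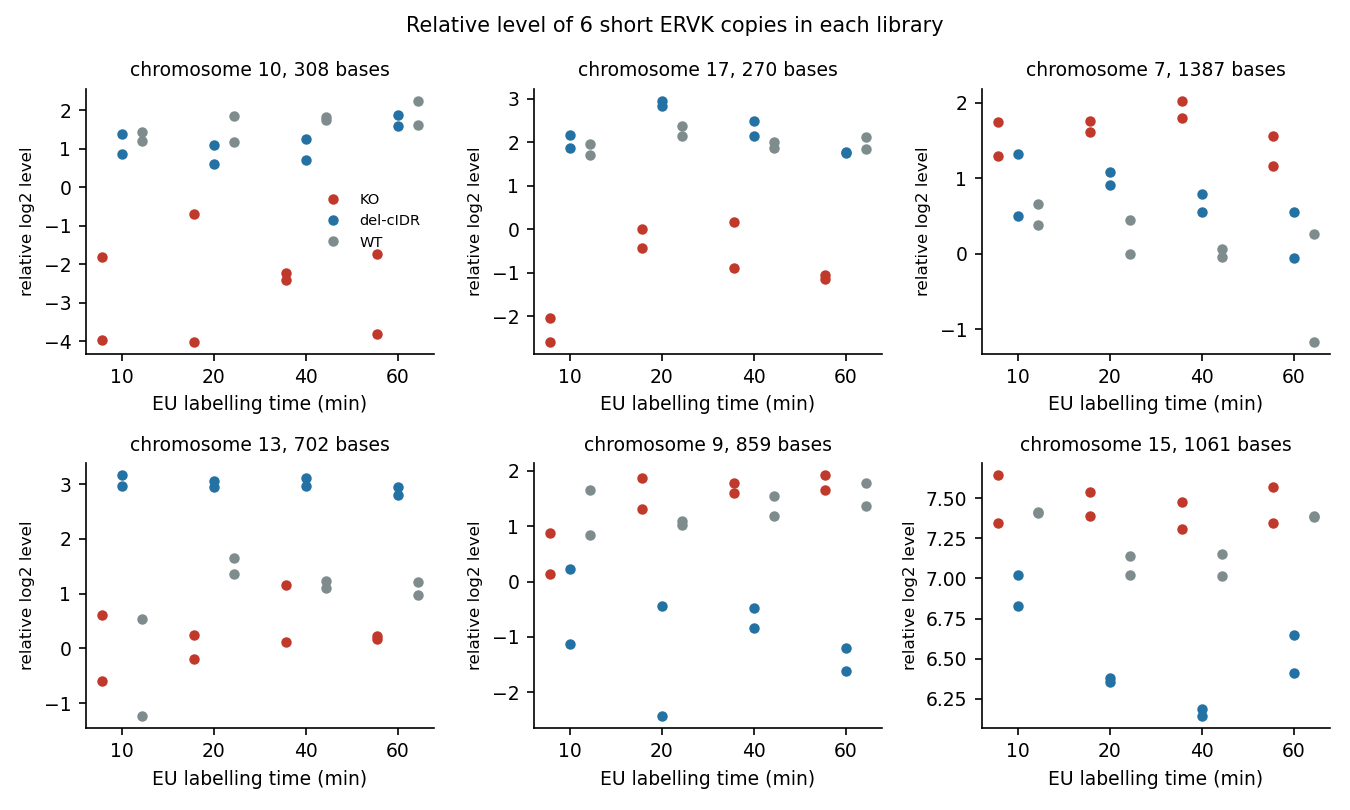
Relative log2 level of 6 short ERVK copies in each of the 24 libraries against EU labelling time in minutes; 0 is the median tested repeat locus of the library and each point is 1 library. Among copies of 1 sign at all times whose mean level reached 30 they are the largest fall in KO (chromosome 10), a fall in KO beyond the neighbours (chromosome 17), the largest rise in KO (chromosome 7), a rise in del-cIDR beyond the neighbours (chromosome 13) and the largest fall in del-cIDR (chromosome 9); the last is the copy with the highest mean level (chromosome 15).

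A recurring arrangement of lengths was noticed among the copies lower in del-cIDR cells and is given as a description. In it a copy of about 1 kb (median 1044 bases) stands in the same run beside a shorter one of either of 2 recurring lengths (medians 530 and 607 bases). The table lists 49 such copies, 44 had reads and 21 were tested. In del-cIDR cells 9 of the 21 were lower and none higher, 19 lay below 0, and the median was -0.69. In KO cells 3 were lower and none higher, 11 lay below 0, and the median was -0.0014. The other 115 tested copies within the same range of lengths gave 12 lower and 9 higher in del-cIDR cells, with a median of -0.07. The lengths of the partners were part of how these copies were picked, and reads of near-identical copies cannot be placed with certainty, so the 21 may share reads.

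The copy of this kind with the highest level, chr15:33835972-33837016 (1044 bases), lies in a run of 7 copies over 5106 bases, a few kb from the highest short ERVK copy of all. Its relative log2 level was 4.65 to 5.45 in KO and 3.14 to 4.42 in del-cIDR, against 4.14 to 5.18 in WT libraries. The difference in del-cIDR cells was -0.93 ± 0.16 (adjusted p = 0.0035). At chr8:20124367-20125411, also in a run of 7 copies, the difference was -0.88 ± 0.15 and the neighbours differed by -0.96. At chr19:13116935-13117980 the neighbours had a level of 0.30 only, and the difference was -0.77 ± 0.17 (adjusted p = 0.023). At chr15:9220839-9221886 it was -0.69 ± 0.16 (adjusted p = 0.029), and the 529-base copy beside it, chr15:9220321-9220850, differed by -0.87 ± 0.13 (adjusted p = 0.0012). Around these 2 copies repeats of other families fell by 2.35 and 2.38 in KO cells, whereas the copies themselves differed by -0.12 and 0.36 there, a difference from the neighbours of 2.26 and 2.76 (adjusted p = 0.00036 and 0.00029). The copies chr16:43586124-43587169 and chr9:5550188-5551232 differed by -0.42 and -0.44 without passing the test, and the first fell by 0.59 in KO cells. The calls at chr19:13116935-13117980 and chr15:9220839-9221886 were lost without any of 6 and any of 10 single libraries, and on the spike-in scale no call in del-cIDR cells among the 6 copies was kept.

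Short copies were called for a trend with labelling time at shares near those of all repeat loci. Over all genotypes 2888 copies (16.9%) took a larger and 1916 (11.2%) a smaller part with each doubling of the labelling time, where 15.7% and 9.62% of all loci were called; on the spike-in scale, 16815 were called higher and 4 lower, where 98.7% and 0.0258% of all loci were called. The median slope was 0.03 per doubling both for the short copies and for all loci. Copies in a run with a long copy had a median slope of 0.13, with 169 of 583 (29.0%) called higher and 20 lower. The steepest slopes at a level of at least 30 were 1.01 to 1.11 per doubling and belonged to chrX:5545158-5545682, chrX:61252712-61253475, chr3:91066802-91068345 and chr14:77756848-77757794. The lowest were -0.94 to -0.70, at chr1:55014613-55016213, chr13:6690193-6690801, chr17:26877063-26877502 and chr1:51852551-51852889, of which the last 2 turned to 0.045 each on the spike-in scale. In the authors' deposited table, the median ratio of the tested copies to 10 min was 0.38, 1.04 and 1.46 on the log2 scale at 20, 40 and 60 min in KO and 2.37, 2.95 and 2.69 in del-cIDR, against 0.79, 1.85 and 1.90 in WT, close to the medians of all tested loci (0.37, 1.00 and 1.47 in KO, 2.37, 2.99 and 2.75 in del-cIDR and 0.78, 1.83 and 1.90 in WT).

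No copy showed a genotype difference that depended on labelling time at an adjusted p under 0.05 by limma's F test, in KO or in del-cIDR cells, where 0.0% of all loci were called in either. At an unadjusted p under 0.05 there were 900 copies (5.26%) for KO and 1361 (7.96%) for del-cIDR cells, against 5.31% and 8.84% of all loci. On the deposited spike-in scale 410 copies were called for del-cIDR cells and none for KO, where 8680 and 0 of all 306027 loci were called. With limma's trend 20 and with voom weights 21 copies were called for del-cIDR cells and none for KO. Leaving out KO library 20A, 10A or WT library 10A gave 103, 44 and 18 copies for KO, and leaving out del-cIDR library 10A or 10B or WT library 10A or 20A gave 131, 22, 51 and 5 for del-cIDR cells. The median difference of the tested copies at 10, 20, 40 and 60 min was -0.12, -0.06, -0.05 and -0.07 in KO and -0.10, 0.04, -0.03 and -0.06 in del-cIDR cells.

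A list of 35 names of genes that silence retroelements was looked up. Fam208a (also Tasor) and Hells (also Lsh) stood in it under both names, so it held 33 genes, and all 33 were tested. In KO cells 8 were lower and 5 higher, with a median of -0.04, where 15.9% and 14.9% of all 22448 tested genes were lower and higher, with a median of -0.01. Setdb1, which methylates histone H3 on lysine 9, differed by -0.25 ± 0.04 (adjusted p = 0.00029), Trim28, the corepressor of KRAB zinc finger proteins, by -0.27 ± 0.05 (adjusted p = 0.00091), and Zfp57, a KRAB zinc finger gene, by -0.35 ± 0.05 (adjusted p = 5.2e-05). Of the 5 that rose, Atf7ip, Cbx3, Smarcad1 and Resf1 lie on chromosome 6, whose repeats were higher as a whole. In del-cIDR cells 18 of the 33 were lower and 3 higher, where 15.4% and 10.8% of all genes were called, with a median of -0.15 against -0.02 over all genes. Uhrf1, a partner of the DNA methyltransferase Dnmt1, differed by -0.29 ± 0.04, and Trim28 and Setdb1 by -0.31 ± 0.05 and -0.24 ± 0.04, while Atrx, which lies on chromosome X, rose by 0.47 ± 0.04. On the spike-in scale no gene of the list was called lower in either mutant, with 5 called higher in KO and 1 in del-cIDR cells. Of 15 genes of the m6A machinery 2 were lower and 1 higher in KO, the last being Fto, another m6A demethylase (0.46 ± 0.06), which lies on chromosome 8, where repeats were also higher as a whole, and 2 were lower and 2 higher in del-cIDR cells; Alkbh5 is among those lower in both. On the spike-in scale none of the 15 was lower, 2 were higher in KO and none in del-cIDR cells. Gene and repeat values were not tested against each other.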

How the data were processed

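EU-labelled RNA of 24 libraries was sequenced after Click-iT capture with a Drosophila EU-RNA spike-in (SMARTer Stranded Total RNA v2), per the labels' protocols. The submitters' processing notes name HISAT2, SAMtools, Picard and GRCm39. The counter, the use of strand, the source of the repeat annotation and the treatment of reads that match several copies are steps that no source used here gives, so values of near-identical copies are uncertain. No genome or annotation of GRCm39 was used here, so no sequence and no host gene is given. The authors deposited log2 ratios of each labelling time to 10 min per repeat and per gene, computed from the sum over both libraries of reads per spike-in read, times 40000, plus 1; this form was found from the values. The sums of a group follow exactly from them (100% of lines rebuilt), a check that does not depend on how a sum is split between both libraries. The more deeply spiked library of a group is called A; at 17 tested copies the split between A and B was unclear, and the group's sum was shared by the median ratio, which gives a mean but no spread. Columns marked ki were taken as del-cIDR by elimination. No other value columns were left unused.

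Levels (reads per 11714 spike-in reads) were fitted as log2(level + 1) with limma 3.58.1 in R 4.3.3 over all 306027 loci that had reads in 6 or more libraries and a mean level of 10 or above, each library set to its median locus, with 12 group means; p-values were adjusted by Benjamini-Hochberg over all loci. Genotypes were compared at each of the 4 times and the 4 differences averaged; a slope is per doubling of labelling time. Both mutants were compared with the same WT libraries. Scripts were checked on simulated data. Genes were fitted separately in the same way. In the gene table the split between A and B was unclear more often. It was unclear at 2829 lines at 60 min in WT, 272 at 40 min in del-cIDR and 178 at 40 min in KO. Sums shared by the median ratio carry no spread, so SEs and p-values of such genes may be too small. Named copies are the 10 with the highest level, the 8 largest rises and falls in each mutant and the 3 largest of each direction between mutants (called, 1 sign at 4 times, level of at least 30), and the 4 steepest and 4 lowest slopes; copies of level 500 or more and the length arrangement were added after their values had been seen. The members, gene lists and rules were chosen with earlier results of these data known. Alternatives changed the scale, normalization, pseudocount, filter, spread model, libraries and loci. Counts of reads limit the precision of low copies.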

Additional observations from a re-analysis of the deposited data

How the results depend on the processing

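No paired analysis was possible because the deposited columns sum both libraries of a group and carry no replicate number. On the deposited spike-in scale, copies higher and lower in KO numbered 1032 and 567, with a median of 0.25; 197 were lower in del-cIDR, with a median of 0.13; 945 were higher in del-cIDR than in KO, with a median of -0.11; the trend gave 16815 higher and 4 lower, with a median slope of 0.77; 410 differences of del-cIDR depended on time; the summed differences were 0.23 in KO and 0.11 in del-cIDR; and the slopes of chr1:51852551-51852889 and chr17:26877063-26877502 turned to 0.045 each. The alternative itself takes away the centring on the median locus.

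Relative to other repeats within 10 kb, chosen after seeing the data, 8 copies were higher and 17 lower in KO (median 0.0039). On that scale 6 were higher and 9 lower in del-cIDR. Between the mutants 68 were higher and 52 lower in del-cIDR than in KO (median -0.0047), and 446 and 706 had a trend. There the KO differences of chr1:9006744-9007141, chr1:9007635-9009433, chr1:9010089-9011715, chr3:8085118-8087029 and chr7:58313600-58314987 turned to 0.13, 0.39, 0.12, 0.017 and -0.39. Those of del-cIDR turned to 0.070 at chr1:16980926-16981478, -1.15 at chr11:31932117-31932484, 0.065 at chr2:71178193-71178754, 0.17 at chr3:93729498-93730995 and 0.068 at chr8:20124367-20125411.

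With no filter, 110 copies were higher in KO (median -0.31), 320 lower in del-cIDR (median -0.14), the median between mutants was 0.16, and 105648 copies had a falling trend (median slope -0.62). Each library was still set to its median tested locus there, so a copy without reads takes the shift between scales with its sign turned. These shifts were 0.32 in KO, 0.16 in del-cIDR, -0.16 between mutants and 0.74 for the slope. The medians and falling trends without a filter therefore largely give the scaling and do not describe the copies. Copies higher in KO numbered 634 with a pseudocount of 4, 615 with limma's trend, 1021 with voom weights and 92 without chromosomes 4, 6, 8, 11 and X. Copies higher in del-cIDR numbered 301 with the trend, 445 with voom and 110 without those chromosomes, where 631 were lower in del-cIDR than in KO. The KO median was -0.034 after quantile normalization and -0.11 without those chromosomes, and the median between mutants 0.014 with voom and 0.10 without them. A mean level of at least 30 gave 1795 rising trends, and voom a median slope of 0.067. Differences that depended on time numbered 1 in KO with a pseudocount of 0.5, and in del-cIDR 29 with that pseudocount, 10 at a level of at least 30, 20 with the trend and 21 with voom. The causes of the other changes were not tested.

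With each library left out in turn, copies higher and lower in KO ranged from 210 to 532 and from 976 to 1535, those in del-cIDR from 103 to 317 and from 384 to 825, and those with a difference that depended on time from 0 to 103 in KO and from 0 to 131 in del-cIDR; the medians kept their sign. Among 61 results for named copies, the calls of chr6:60303949-60304420, chr6:60310090-60311932, chr2:71178193-71178754, chr3:51008859-51009537, chr15:9220839-9221886 and chr19:13116935-13117980 were lost without single libraries. Low read numbers and 2 libraries per group limit the precision at single copies.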
